A study of Homo sapiens with 48 samples.

Results

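The p53 target genes described here are 33 human genes known to be switched on by the transcription factor p53, and all 33 were found by symbol among the 48898 genes of the deposited count table. They were measured by RNA sequencing in 48 libraries that form 16 groups of 3. The libraries come from IMR-90, a fibroblast line from fetal lung, and SK-MEL-103, a melanoma line, and the study asked how mitofusins bear on senescence induced by doxorubicin, a topoisomerase poison. In the siRNA experiment, done in both lines, cells received siRNA on day -1 against MFN1 (siMFN1), against MFN2 (siMFN2), against both (siMFN1+2) or against MAVS (siMAVS), or a control siRNA. Those 5 groups were then given 200 nM doxorubicin for 48 h followed by drug-free medium, and RNA was harvested on day 7. The last group of each line was control-siRNA cells that kept proliferating without doxorubicin. In the compound experiment, done in IMR-90, cells 7 days after the start of doxorubicin were exposed for 48 h to 20 µM MFI8, to 10 µM BI or to DMSO, their solvent, before RNA was harvested on day 9. Proliferating IMR-90 in DMSO served as their reference. No harvest day is given for the proliferating cells of any experiment. Where a day is named for them below, it is that of the doxorubicin-treated cells they were compared with. MFI8 is the inhibitor of mitofusins and BI the activator, and their doses differ. All cells grew in DMEM with fetal bovine serum. Mitofusins, the products of MFN1 and MFN2, are GTPases that fuse the outer membranes of mitochondria, and MAVS is an adaptor of antiviral RNA sensing on the same membrane. Each line is a cultured line, silencing was by transient siRNA, and the labels do not say whether the 3 libraries of a group were separate cultures, so the p-values measure the spread between these libraries, which may be technical.

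p53 is kept scarce by MDM2, a ubiquitin ligase that marks it for degradation. DNA breaks, such as those that doxorubicin leaves by trapping topoisomerase, activate kinases that free p53 from MDM2, and p53 then binds a short response element near its targets and raises their transcription. The targets act in feedback on p53, in cell cycle arrest, in DNA repair, in cell death and in metabolism, and in senescent cells p53 is known for holding the arrest through the inhibitor CDKN1A (p21).

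The response element itself was looked for in the promoters, because it is the sequence that ties these genes together. RefSeq windows of 300 bases on GRCh38.p14, from 250 bases before to 50 bases after a transcription start, were on hand for 25 of the 33 genes, in 38 windows. The p53 consensus element, which is 2 repeats of 10 bases each, was searched on both strands with no spacer between the repeats and with up to 3 mismatches, none of them at the C and G of a core. Such a site lay in a window of 7 of the 25 genes, or 28.0%, against 373 of 27305 genes with a window, or 1.37%. Letters that match are a description and do not show binding, and most known p53 sites lie outside so short a window. The 7 sites are printed here 5′ to 3′ on the strand of the gene, with the 4-base core of each repeat in capitals.
MDM2, chr12:68808923-68808942, plus strand: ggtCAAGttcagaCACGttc
DDB2, chr11:47214969-47214988, plus strand: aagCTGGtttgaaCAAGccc
FAS, chr10:88991309-88991328, plus strand: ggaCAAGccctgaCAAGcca
AEN, chr15:88621306-88621325, plus strand: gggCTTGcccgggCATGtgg
FDXR, chr17:74872996-74873015, minus strand: gggCAGGagcgggCTTGccc
RPS27L, chr15:63157527-63157546, minus strand: ggcCTAGagcagaCAAGccc
SESN1, chr6:109009018-109009037, minus strand: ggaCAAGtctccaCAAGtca
The DDB2 site was the closest to the consensus, with 1 mismatch, and it spanned the transcription start, from position -5 to position 14. The sites of MDM2, FAS and AEN had 2 mismatches each, and those of FDXR, RPS27L and SESN1 had 3. The whole windows of MDM2 and DDB2 are shown for the setting of the site, which is in capitals there.
MDM2 promoter window, chr12:68808767-68809066, plus strand: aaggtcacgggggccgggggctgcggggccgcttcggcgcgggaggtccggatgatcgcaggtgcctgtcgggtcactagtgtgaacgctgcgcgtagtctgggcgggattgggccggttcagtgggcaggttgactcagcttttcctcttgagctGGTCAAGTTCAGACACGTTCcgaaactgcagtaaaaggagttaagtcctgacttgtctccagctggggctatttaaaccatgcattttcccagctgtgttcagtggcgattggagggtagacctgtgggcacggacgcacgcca
DDB2 promoter window, chr11:47214724-47215023, plus strand: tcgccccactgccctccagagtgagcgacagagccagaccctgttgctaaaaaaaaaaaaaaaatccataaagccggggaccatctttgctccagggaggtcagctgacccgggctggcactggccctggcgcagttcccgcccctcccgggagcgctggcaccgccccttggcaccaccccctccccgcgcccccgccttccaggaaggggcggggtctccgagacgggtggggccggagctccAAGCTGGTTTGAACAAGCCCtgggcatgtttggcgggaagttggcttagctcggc

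The libraries held between 15206115 and 79204217 counts, with 53390716 or more in those numbered 1 in their labels, 30176556 to 50828283 in those numbered 2 and at most 31127306 in those numbered 3. A library of SK-MEL-103 with siMFN2 that has no number in its label is called number 1 here. All 48 pairs of libraries within a group differed by more than sampling noise. The lines matched their labels in part of their markers. All 10 fibroblast markers were above 1 CPM (counts per 1e6 counts) on average in IMR-90, with a summed level of 5186 to 50230 CPM per library, against 27.67 to 122.3 CPM in SK-MEL-103. Of 10 melanocyte markers, SOX10, PAX3, MITF and ERBB3 were above 1 CPM in SK-MEL-103, and the pigment genes PMEL, MLANA, TYR, TYRP1 and DCT as well as S100B were below it. MITF and TYRP1 were higher in IMR-90, with means of 45.0 and 2.45 CPM against 9.05 and 0.145 CPM in SK-MEL-103. The summed melanocyte markers came to 412.7 to 706.9 CPM in SK-MEL-103, mostly SOX10, and 17.9 to 80.35 CPM in IMR-90, mostly MITF. Markers of epithelial, endothelial and blood cells summed to 126.3 to 422.5 CPM in IMR-90 and 46.39 to 134.6 CPM in SK-MEL-103, mostly KRT8 and KRT18.

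Doxorubicin raised most of the p53 target genes in both lines. With control siRNA on day 7, 27 of the 33 genes rose and 1 fell in doxorubicin-treated against proliferating IMR-90, where a gene is said to rise or fall when its p from edgeR's quasi-likelihood test, adjusted after Benjamini and Hochberg across the tested genes, was below 0.05. Of all 19077 genes tested in that comparison, 27.4% rose and 24.4% fell, 51.8% together. In SK-MEL-103, 21 of 32 tested genes rose and 3 fell, against 29.8% and 30.6% of all 17945 genes, 60.4% together. In IMR-90 in DMSO on day 9, 27 of 33 rose and 1 fell, against 28.8% and 27.1% of all 19056 genes, 55.9% together. The median log2 fold change of the p53 targets was 1.19 in IMR-90 on day 7, 0.76 in SK-MEL-103 and 1.04 in IMR-90 on day 9, and the medians of all genes were 0.09, 0.03 and 0.10. The members were chosen as known p53 targets and with results of these data known, so their direction is a description. These are bulk libraries, in which fewer cells of a type and less RNA per cell cannot be told apart.

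The same 20 genes rose in all 3 comparisons. They were BTG2, EDA2R, FAS, FDXR, GADD45A, MDM2, NINJ1, PHLDA3, RPS27L, RRM2B, SESN1, SPATA18, SUSD6, TIGAR, TNFRSF10B, TP53I3, TP53INP1, TRIM22, XPC and ZMAT3. How many of all genes rose in all 3 comparisons was not counted, so the number of shared members is a description. Marker levels differed with doxorubicin too. The sum of the fibroblast markers was 24430 to 38380 CPM in doxorubicin-treated and 6190 to 20280 CPM in proliferating IMR-90 with control siRNA, 13280 to 23020 CPM and 5186 to 6604 CPM in IMR-90 in DMSO, and 99.71 to 108.5 CPM and 27.67 to 49.67 CPM in SK-MEL-103, without overlap. The summed melanocyte markers were at 29.77 to 59.17 CPM in doxorubicin-treated and 17.9 to 27.31 CPM in proliferating IMR-90 with control siRNA and at 50.12 to 56.08 CPM and 26.58 to 38.25 CPM in DMSO, also without overlap, while in SK-MEL-103 they overlapped, at 589.5 to 674.5 CPM and 477 to 599.3 CPM. Markers of epithelial, endothelial and blood cells summed to 48.5 to 57.8 CPM in doxorubicin-treated and 89.86 to 134.6 CPM in proliferating SK-MEL-103, without overlap, and overlapped in IMR-90, at 151.1 to 225.9 CPM and 201.9 to 252.7 CPM with control siRNA and 166.2 to 223.6 CPM and 201.2 to 239.6 CPM in DMSO. The part of these markers in the changes of the p53 targets was not tested.

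**Figure D1:**
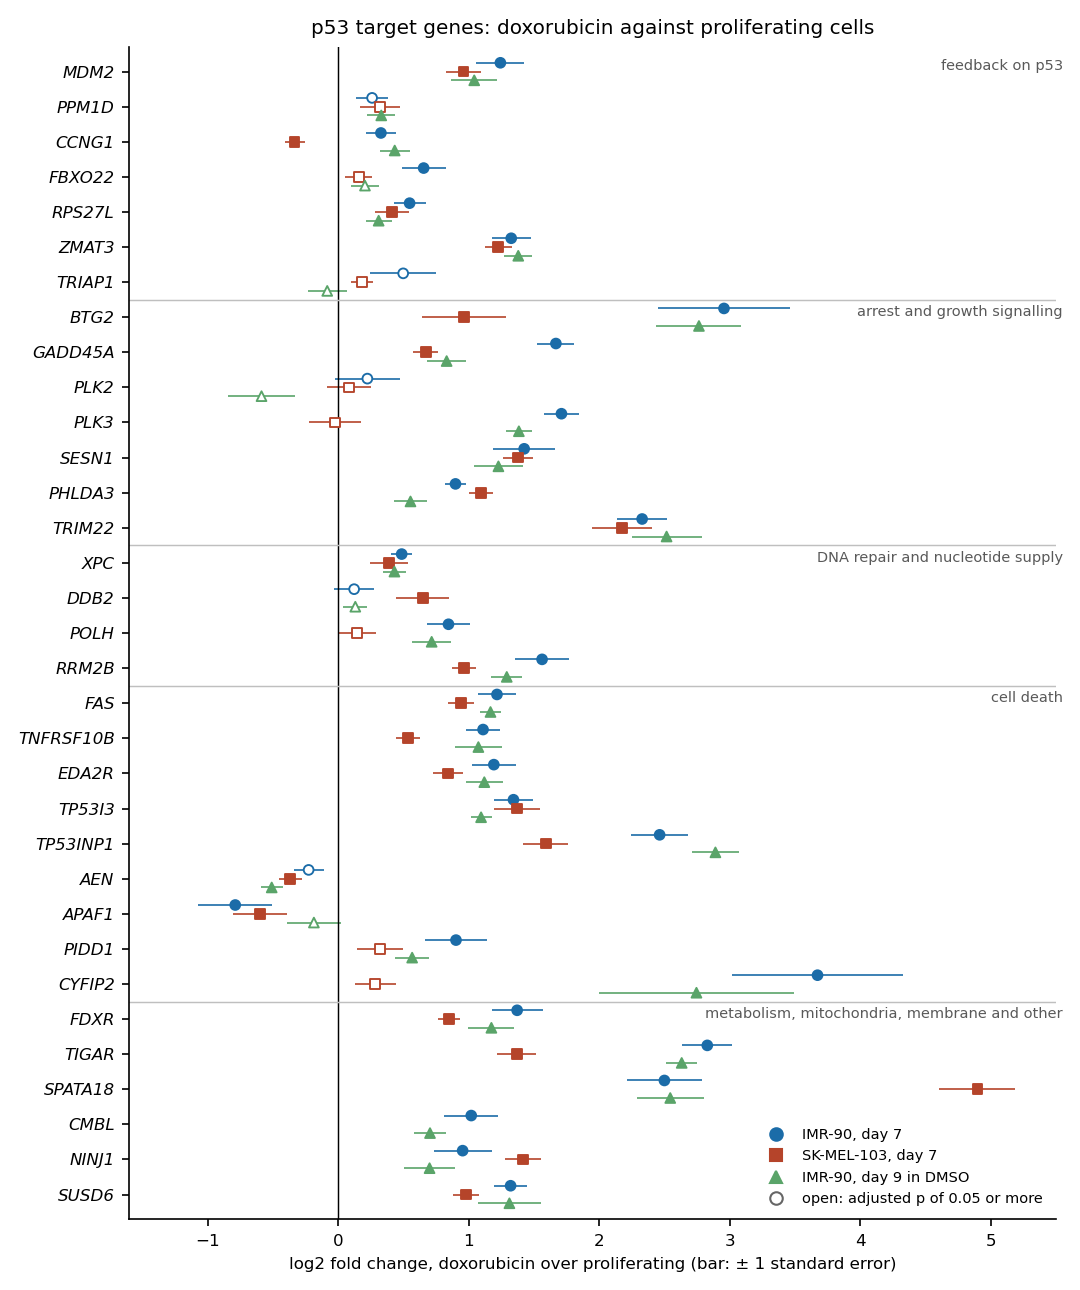
Log2 fold change with doxorubicin (x axis, bars are ±1 SE) of each of the 33 p53 target genes, grouped by role, in IMR-90 on day 7 (blue circles), SK-MEL-103 on day 7 (red squares) and IMR-90 in DMSO on day 9 (green triangles), where open symbols have an adjusted p of 0.05 or more. Most symbols lie right of 0, CYFIP2 and PLK3 lie far apart between the lines, and SPATA18 in SK-MEL-103 is farthest right at 4.90.

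The genes placed under feedback on p53, a grouping made for ordering only, moved by moderate amounts. Of the 7, 5 rose in IMR-90 on day 7, 3 rose and 1 fell in SK-MEL-103, and 5 rose in IMR-90 on day 9. That is 71.4%, 57.1% and 71.4% called in either direction, against 51.8%, 60.4% and 55.9% of all genes, so that the SK-MEL-103 share is near that of all genes. MDM2 (chr12:68808176-68850686, plus strand, positions from GENCODE 29 on GRCh38) was at 262, 283 and 224 CPM in libraries 1, 2 and 3 of doxorubicin-treated IMR-90, against 101, 99.4 and 118 CPM in proliferating IMR-90. Its log2 fold change there was 1.24 (SE 0.184, adjusted p = 6.49e-05). Every doxorubicin library lay above every proliferating library. In SK-MEL-103, MDM2 was at 340, 372 and 326 CPM with doxorubicin and 201, 172 and 152 CPM in proliferating cells, a log2 fold change of 0.96 (SE 0.136, adjusted p = 1.11e-05). In IMR-90 on day 9 it was at 249, 207 and 252 CPM with doxorubicin and 119, 93.1 and 114 CPM in proliferating cells, a log2 fold change of 1.04 (SE 0.177, adjusted p = 0.000594). The groups did not overlap in either.

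ZMAT3, a zinc-finger protein that binds RNA, had the highest log2 fold change of this group in all 3 comparisons, at 1.33, 1.23 and 1.38. CCNG1 (cyclin G1), which with the phosphatase PP2A acts on MDM2, went in opposite directions in the lines. It was at 162, 171 and 132 CPM in doxorubicin-treated and 126, 109.6 and 127 CPM in proliferating IMR-90 on day 7, a log2 fold change of 0.33 (SE 0.117, adjusted p = 0.0287). In SK-MEL-103 it was at 172, 163 and 172 CPM with doxorubicin and 231, 205 and 192 CPM in proliferating cells, a log2 fold change of -0.33 (SE 0.0768, adjusted p = 0.0012). On day 9 it was at 149, 172 and 129 CPM in doxorubicin-treated and 117, 115 and 82.9 CPM in proliferating IMR-90 (log2 fold change 0.43, adjusted p = 0.00865). The CCNG1 call in IMR-90 on day 7 was lost when doxorubicin library 1 or 2 or proliferating library 1 or 2 was left out, with an adjusted p of up to 0.128.

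RPS27L, a ribosomal protein paralog that binds MDM2, was at 171, 136 and 121 CPM in doxorubicin-treated and 103, 85.2 and 98.4 CPM in proliferating IMR-90 on day 7 (log2 fold change 0.55), and at 276, 259.8 and 245 CPM and 143, 227 and 207 CPM in SK-MEL-103 (0.41, a call lost without proliferating library 1, adjusted p = 0.069). On day 9 it was at 125, 143 and 108 CPM with doxorubicin and 112, 93.1 and 81.3 CPM in proliferating cells (0.31, adjusted p = 0.0223), and there the groups overlapped. RPS27L is close in sequence to RPS27, and how reads shared by such copies were counted is not given in the sources used here. FBXO22, an F-box protein that targets methylated p53, rose in IMR-90 on day 7, at 65.9, 68.5 and 48.4 CPM with doxorubicin and 44.8, 31.9 and 37.0 CPM in proliferating cells (log2 fold change 0.65, adjusted p = 0.00459). Its log2 fold change was 0.16 in SK-MEL-103 and 0.21 in IMR-90 on day 9, neither of which passed the test. PPM1D, a phosphatase that switches off p53 and its kinase ATM, passed the test on day 9, with 25.1, 30.2 and 22.6 CPM in doxorubicin-treated and 21.6, 17.8 and 19.0 CPM in proliferating IMR-90, a log2 fold change of 0.33 (SE 0.109, adjusted p = 0.0248). That PPM1D call was lost when proliferating library 2 or 3 or doxorubicin library 2 was left out, with an adjusted p of up to 0.106, and so was the RPS27L call of day 9, with up to 0.0981. TRIAP1, a carrier of lipids in mitochondria that was counted in this group, passed in no comparison, with log2 fold changes of 0.50, 0.18 and -0.08.

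Arrest and growth-signalling genes mostly rose. It was 6 of 7 on day 7 and 6 of 7 on day 9 in IMR-90, and 5 of 7 in SK-MEL-103. Of all genes, 27.4% rose in IMR-90 on day 7, 28.8% on day 9 and 29.8% in SK-MEL-103. BTG2, an antiproliferative protein that recruits the mRNA deadenylase CCR4-NOT (chr1:203305491-203309602, plus strand), was at 48.8, 61.8 and 27.6 CPM in doxorubicin-treated and 5.40, 2.75 and 9.46 CPM in proliferating IMR-90 on day 7, a log2 fold change of 2.96 (SE 0.503, adjusted p = 0.000215). The lowest doxorubicin library stood well above the highest proliferating one, and both groups varied more than 2-fold within themselves. On day 9 BTG2 was at 45.6, 30.6 and 43.1 CPM in doxorubicin-treated and 5.37, 5.96 and 5.38 CPM in proliferating IMR-90, a log2 fold change of 2.76 (SE 0.326, adjusted p = 4.9e-05). In SK-MEL-103 it was at 89.1, 122 and 87.2 CPM and 43.0, 52.6 and 54.7 CPM in the same order, a log2 fold change of 0.97 (SE 0.322, adjusted p = 0.0156). That last call was lost without proliferating library 1 or doxorubicin library 2, with an adjusted p of up to 0.0663.

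SESN1, a sestrin that restrains the growth kinase complex mTORC1, was at 59.8, 67.9 and 59.6 CPM in doxorubicin-treated and 25.6, 22.7 and 22.5 CPM in proliferating SK-MEL-103, a log2 fold change of 1.38 (SE 0.116, adjusted p = 2.54e-08). It rose by a like amount in IMR-90, with log2 fold changes of 1.42 on day 7 and 1.23 on day 9. TRIM22, an antiviral ubiquitin ligase induced by interferon and by p53, was at 170.1, 185 and 149 CPM in doxorubicin-treated and 45.1, 25.8 and 38.9 CPM in proliferating SK-MEL-103, a log2 fold change of 2.17 (SE 0.227, adjusted p = 3.44e-07). In IMR-90 its log2 fold change was 2.33 on day 7 and 2.52 on day 9. GADD45A, which binds PCNA and the mitotic kinase CDK1, and PHLDA3, which competes with the kinase AKT for the membrane, rose in all 3 comparisons, with log2 fold changes of 1.67, 0.67 and 0.83 for GADD45A and of 0.90, 1.09 and 0.55 for PHLDA3. GADD45A was at 201, 203 and 190.3 CPM in doxorubicin-treated and 121, 131 and 116 CPM in proliferating SK-MEL-103. PHLDA3 was at 136, 174 and 134 CPM in doxorubicin-treated and 102, 82.5 and 101 CPM in proliferating IMR-90 on day 9. Neither pair of groups overlapped.

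The polo-like kinases PLK2 and PLK3, which respond to stress, stood apart from the rest of the group. PLK3 (chr1:44800225-44805990, plus strand) was at 74.9, 65.2 and 71.4 CPM in doxorubicin-treated and 21.0, 24.9 and 17.6 CPM in proliferating IMR-90 on day 7, a log2 fold change of 1.71 (SE 0.132, adjusted p = 1.76e-07). In SK-MEL-103 it was at 21.8, 29.2 and 20.7 CPM with doxorubicin and 20.6, 25.4 and 25.8 CPM in proliferating cells, a log2 fold change of -0.02 with overlapping groups. PLK2 passed in none of the 3, with log2 fold changes of 0.22, 0.08 and -0.59, and on day 9 all 3 doxorubicin libraries lay below the proliferating ones.

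Of the 4 genes of DNA repair and nucleotide supply, 3 rose in each comparison, with DDB2 in place of POLH in SK-MEL-103. The shares of all genes that rose were 27.4% in IMR-90 on day 7, 29.8% in SK-MEL-103 and 28.8% in IMR-90 on day 9. RRM2B, the p53-inducible subunit of ribonucleotide reductase, had log2 fold changes of 1.56 in IMR-90 on day 7, 0.97 in SK-MEL-103 and 1.29 in IMR-90 on day 9. XPC, which recognises bulky lesions in nucleotide excision repair, was at 67.0, 70.5 and 64.4 CPM in doxorubicin-treated and 50.3, 44.2 and 46.7 CPM in proliferating IMR-90 on day 7 (log2 fold change 0.49). On day 9 it was at 67.1, 75.9 and 56.9 CPM and 50.1, 47.8 and 42.2 CPM (0.43), and in SK-MEL-103 at 80.4, 90.7 and 74.3 CPM and 66.0, 56.5 and 61.5 CPM (0.39, adjusted p = 0.0274), in the same order. The XPC call in SK-MEL-103 was lost without doxorubicin library 2 or proliferating library 2 or 3, with an adjusted p of up to 0.113. DDB2, another sensor of damage in the same pathway, rose in SK-MEL-103 with a log2 fold change of 0.65 (adjusted p = 0.0114, lost without library 2 of either group) and did not pass in IMR-90, at 0.12 on day 7 and 0.13 on day 9. In SK-MEL-103 DDB2 was at 119, 129.8 and 95.6 CPM with doxorubicin and 94.3, 56.5 and 65.0 CPM in proliferating cells, so that the lowest doxorubicin library was just above the highest proliferating one. POLH, the translesion polymerase eta, was the reverse, rising in IMR-90 by 0.85 and 0.72 on the log2 scale and not passing in SK-MEL-103, at 0.15. POLH was at 101, 121 and 74.0 CPM in doxorubicin-treated and 56.3, 56.7 and 48.5 CPM in proliferating IMR-90 on day 7, with no overlap. XPC shares 30.4% of its exon bases with genes on the opposite strand, LSM3 among them, and whether strand was used in counting is not given in the sources used here.

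Most cell death genes rose, and 1 or 2 fell in each comparison. Of the 9, 7 rose and 1 fell in IMR-90 on day 7, and 7 rose and 1 fell on day 9. In SK-MEL-103, 5 rose and 2 fell. Among all genes, 27.4% rose and 24.4% fell in IMR-90 on day 7, and 28.8% and 27.1% on day 9. The shares in SK-MEL-103 were 29.8% and 30.6%. The death receptors FAS and TNFRSF10B and the ectodysplasin receptor EDA2R rose in all 3, with log2 fold changes of 1.22, 0.94 and 1.17 for FAS, of 1.11, 0.53 and 1.07 for TNFRSF10B and of 1.19, 0.84 and 1.12 for EDA2R. The same held for TP53I3, a quinone oxidoreductase, at 1.34, 1.37 and 1.09. TNFRSF10B, a receptor for the ligand TRAIL, was at 447, 490.3 and 414 CPM in doxorubicin-treated and 279, 329 and 309 CPM in proliferating SK-MEL-103, and the groups did not overlap.

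TP53INP1, a stress-induced nuclear protein with a part in autophagy (chr8:94925972-94949411, minus strand), was at 84.1, 111 and 75.3 CPM in doxorubicin-treated and 13, 19.8 and 15.6 CPM in proliferating IMR-90 on day 7, a log2 fold change of 2.46 (SE 0.219, adjusted p = 5.55e-07). On day 9 it was at 95, 97.9 and 100.1 CPM with doxorubicin and 16.1, 12.1 and 9.10 CPM without, a log2 fold change of 2.89 (SE 0.177, adjusted p = 8.73e-07). In SK-MEL-103 it was at 99.4, 105 and 103 CPM and 47.3, 24.5 and 28.0 CPM in the same order, a log2 fold change of 1.59 (SE 0.17, adjusted p = 4.54e-07). The groups were far apart in all 3.

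CYFIP2, a subunit of the actin-regulating WAVE complex (chr5:157266079-157395595, plus strand), had the highest log2 fold change of the members in IMR-90 on day 7. It was at 49.4, 93.3 and 25.4 CPM in doxorubicin-treated and 4.94, 3.19 and 4.75 CPM in proliferating IMR-90, a log2 fold change of 3.67 (SE 0.657, adjusted p = 0.000327). On day 9 it was at 50.7, 15.3 and 44.8 CPM with doxorubicin and 5.86, 4.12 and 5.82 CPM in proliferating cells, a log2 fold change of 2.74 (SE 0.745, adjusted p = 0.00964). The groups did not overlap, yet the doxorubicin libraries differed among themselves by more than 3-fold on both days. In SK-MEL-103 CYFIP2 was already present in proliferating cells, at 142, 193 and 194 CPM, and stood at 216, 206 and 233 CPM with doxorubicin, a log2 fold change of 0.28 that did not pass the test (adjusted p = 0.13).

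APAF1, the scaffold of the apoptosome, fell in IMR-90 on day 7, at 28.5, 26.7 and 35.6 CPM with doxorubicin and 51.3, 62.4 and 40.5 CPM in proliferating cells, a log2 fold change of -0.79 (SE 0.284, adjusted p = 0.0299). It fell in SK-MEL-103 as well, at 15.3, 16.4 and 15.5 CPM with doxorubicin and 30.9, 19.4 and 19.5 CPM in proliferating cells, a log2 fold change of -0.60 (SE 0.206, adjusted p = 0.0183). Both calls hung on few libraries. The IMR-90 call was lost without doxorubicin library 1 or 2 or proliferating library 1 or 2, and the SK-MEL-103 call without library 1 of either group. On day 9 the log2 fold change of APAF1 was -0.19 and did not pass. AEN, a nuclease that promotes apoptosis, fell in SK-MEL-103, at 125, 121 and 115 CPM with doxorubicin and 131, 172 and 155 CPM in proliferating cells, a log2 fold change of -0.37 (SE 0.0881, adjusted p = 0.00164). It fell in IMR-90 on day 9 too, at 95.1, 96.0 and 82.8 CPM with doxorubicin and 129, 111 and 129 CPM in proliferating cells, a log2 fold change of -0.51 (SE 0.0833, adjusted p = 0.00046). In IMR-90 on day 7 AEN was at -0.23 on the log2 scale and did not pass. PIDD1, the scaffold of the PIDDosome that activates caspase-2, rose in IMR-90 by 0.90 on day 7 and 0.57 on day 9, and had a log2 fold change of 0.32 in SK-MEL-103 that did not pass.

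The genes of metabolism, mitochondria and membranes rose wherever they were tested: 6 of 6 in IMR-90 on both days and 5 of 5 in SK-MEL-103. That compares with 27.4% and 28.8% of all genes in IMR-90 on days 7 and 9 and 29.8% in SK-MEL-103. TIGAR, a phosphatase that restrains glycolysis (chr12:4307763-4354593, plus strand), was at 29.5, 31.0 and 24.4 CPM in doxorubicin-treated and 3.80, 4.27 and 3.68 CPM in proliferating IMR-90 on day 7, a log2 fold change of 2.83 (SE 0.192, adjusted p = 7.94e-08). Day 9 levels were 27.1, 23.8 and 24.7 CPM and 3.98, 3.83 and 3.76 CPM in the same order, a log2 fold change of 2.63 (SE 0.119, adjusted p = 2.95e-07). In SK-MEL-103 it was at 38.0, 42.7 and 36.5 CPM with doxorubicin and 13.1, 17.7 and 13.9 CPM in proliferating cells, a log2 fold change of 1.37 (SE 0.15, adjusted p = 6.3e-07). No doxorubicin library of TIGAR came near the proliferating range in either line. A transcript on the same strand, AC008012.1, overlaps 42.6% of its exon bases, so reads there could have been counted for either gene or for neither.

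SPATA18 (MIEAP), a protein of mitochondrial quality control (chr4:52051331-52097292, plus strand), was at 32.2, 29.4 and 39.1 CPM in doxorubicin-treated and 5.43, 7.13 and 4.95 CPM in proliferating IMR-90 on day 7, a log2 fold change of 2.50 (SE 0.287, adjusted p = 6.27e-06). Its day 9 levels were 31.2, 40.9 and 22.0 CPM and 6.78, 4.49 and 3.67 CPM in the same order, a log2 fold change of 2.54 (SE 0.258, adjusted p = 1.74e-05). SK-MEL-103 had less of it and a larger change. There SPATA18 was at 5.30, 4.85 and 5.65 CPM with doxorubicin and 0.0862, 0.270 and 0.192 CPM in proliferating cells, which is 21 counts over the 3 proliferating libraries, for a log2 fold change of 4.90 (SE 0.291, adjusted p = 3.24e-10).

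NINJ1, a membrane protein of cell adhesion and of plasma membrane rupture, was at 107, 115 and 95.5 CPM in doxorubicin-treated and 43.3, 31.8 and 42.1 CPM in proliferating SK-MEL-103, a log2 fold change of 1.42 (SE 0.139, adjusted p = 1.69e-07), and rose in IMR-90 by 0.95 on day 7 and 0.70 on day 9. FDXR, the reductase that feeds electrons to mitochondrial ferredoxin, had log2 fold changes of 1.37, 0.85 and 1.17 in IMR-90 on day 7, SK-MEL-103 and IMR-90 on day 9. SUSD6, a membrane protein with a sushi domain, had 1.32, 0.98 and 1.31 in that order. CMBL, a hydrolase, rose in IMR-90 by 1.02 and 0.70 and could not be tested in SK-MEL-103. All 18 SK-MEL-103 siRNA libraries together held 14 CMBL counts, and the 3 proliferating ones held 0 of 122008985 counts, which allows a level of up to 0.0246 CPM, a limit that covers counting error only.

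**Figure D2:**
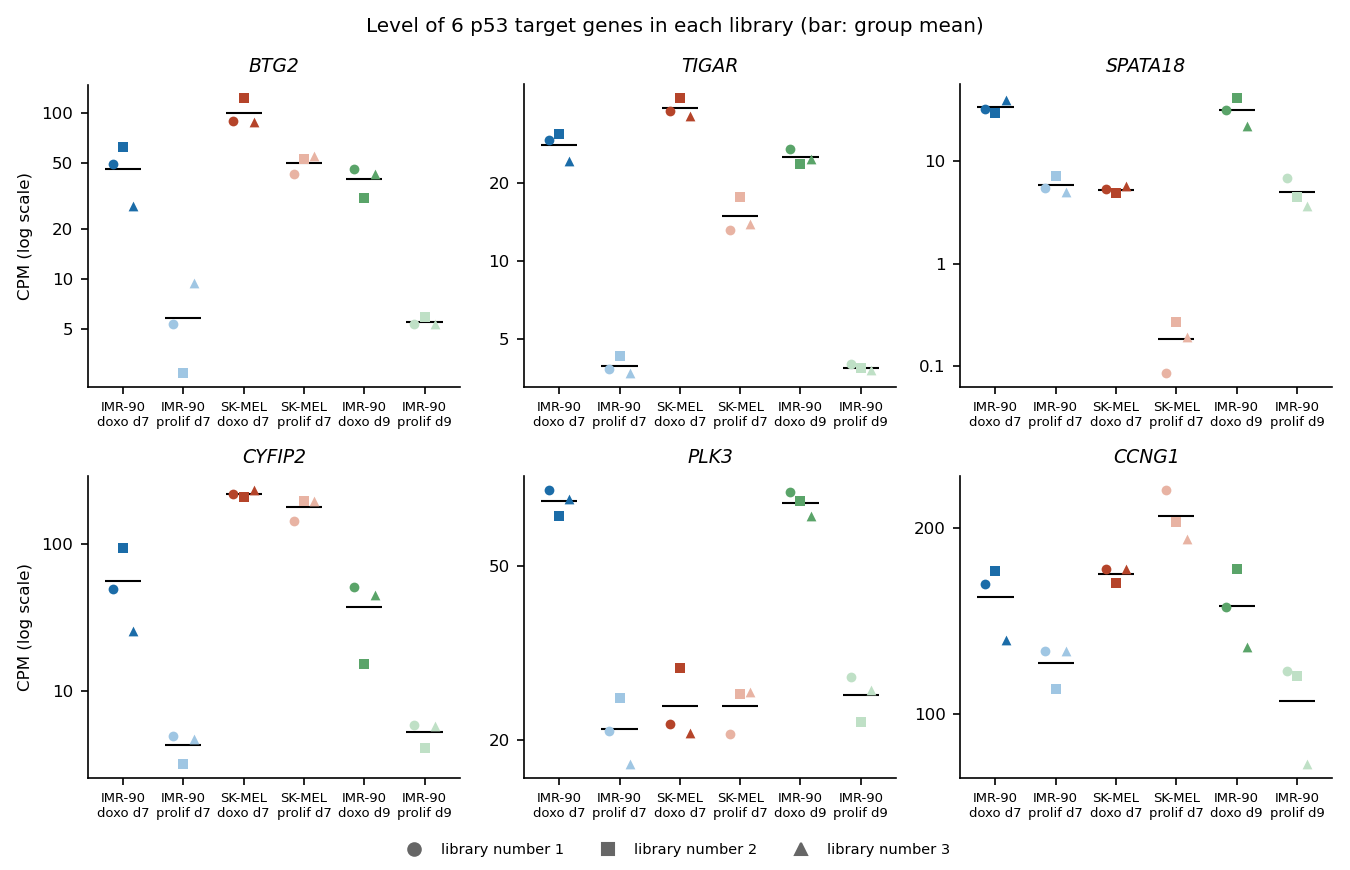
CPM (log axis) in each library of BTG2, TIGAR, SPATA18, CYFIP2, PLK3 and CCNG1 with doxorubicin (dark) and in proliferating cells (light) for IMR-90 on day 7, SK-MEL-103 on day 7 and IMR-90 on day 9; marker shape is the library number and bars are group means. CYFIP2 was at 142 to 233 CPM in all SK-MEL-103 libraries shown and PLK3 did not separate there, while both separated in IMR-90.

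Of the 7 genes with a promoter site printed above, MDM2, FAS, FDXR, RPS27L and SESN1 rose in all 3 comparisons. DDB2, whose site is the closest to the consensus, rose in SK-MEL-103 alone among them, and AEN rose in none and fell in 2. BTG2, TIGAR, SPATA18 and CYFIP2, with the highest log2 fold changes in IMR-90 on day 7, are among the 18 genes whose windows held no such site. Whether the effect goes with the site was not tested.

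The doxorubicin effect differed between the lines in 10 of the 33 genes, 1 with a larger log2 fold change in SK-MEL-103 and 9 with a smaller one, by a test of the difference itself over the 36 siRNA libraries. Of all 20892 genes in that test, 13% had a higher effect in SK-MEL-103 and 9.16% a lower one, 22.2% together. SPATA18 was the gene with the higher effect, at a difference (SK-MEL-103 minus IMR-90) of 2.48 (SE 0.492, adjusted p = 0.000554) on the log2 scale. The lowest differences were those of CYFIP2 at -3.29 (SE 0.648, adjusted p = 0.000524), BTG2 at -1.90 (SE 0.597, adjusted p = 0.0215), PLK3 at -1.64 (SE 0.245, adjusted p = 2.39e-05) and TIGAR at -1.37 (SE 0.247, adjusted p = 0.000212). GADD45A at -0.90, TP53INP1 at -0.77, POLH at -0.60, CCNG1 at -0.57 and TNFRSF10B at -0.48 made up the rest.

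The levels behind these differences took several shapes. TIGAR and BTG2 were higher in proliferating SK-MEL-103 than in proliferating IMR-90, and also higher with doxorubicin, so that the smaller log2 change began from a higher start. CYFIP2 was high in SK-MEL-103 with and without doxorubicin. PLK3 overlapped between proliferating cells of the lines, at 20.6, 25.4 and 25.8 CPM in SK-MEL-103 and 21.0, 24.9 and 17.6 CPM in IMR-90, and differed in doxorubicin-treated cells, at 21.8, 29.2 and 20.7 CPM in SK-MEL-103 and 74.9, 65.2 and 71.4 CPM in IMR-90. CCNG1 rose in IMR-90 and fell in SK-MEL-103. The calls for POLH, TP53INP1, TNFRSF10B and BTG2 were lost in 10, 8, 7 and 4 of the 12 fits that leave out 1 library, with adjusted p of up to 0.182, 0.267, 0.118 and 0.0697. Leaving out proliferating library 1 of IMR-90 or doxorubicin library 1 of SK-MEL-103 ended all 4 of these calls, and 6 members were then called in place of 10. For 8 members the 95% interval of the difference lay within 1.5-fold either way, ZMAT3 at -0.38 to 0.37 among them, and for MDM2 it was -0.67 to 0.29. The CMBL difference has no meaning at its SK-MEL-103 counts.

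**Figure D3:**
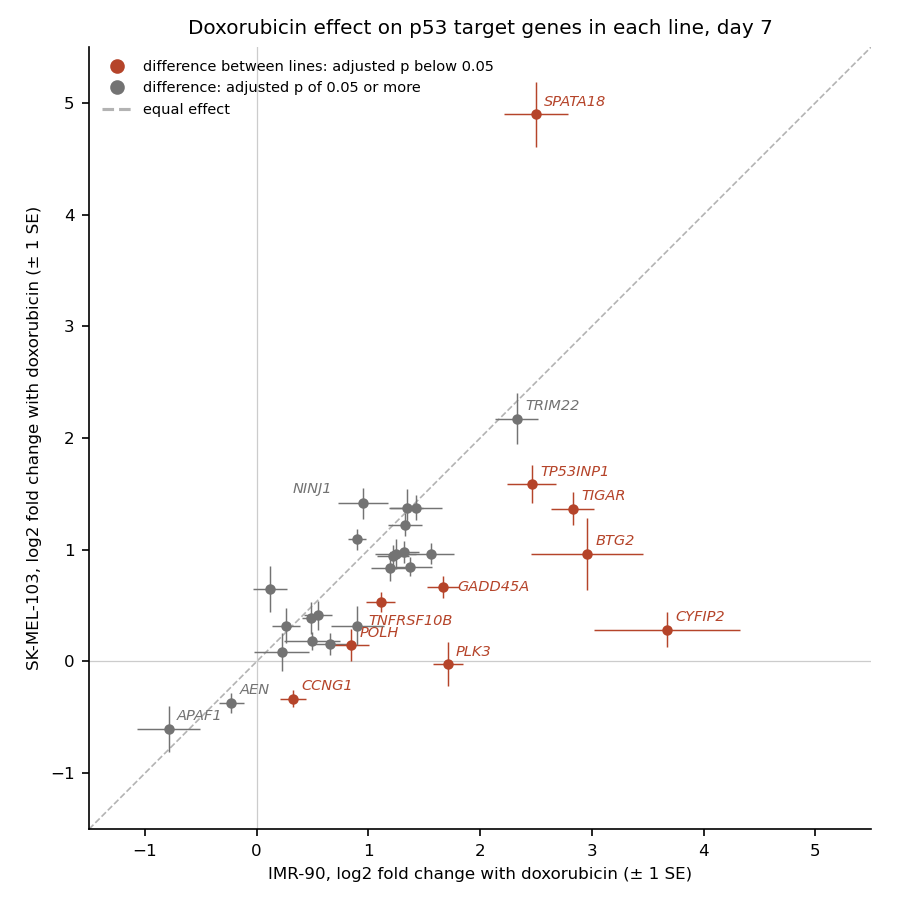
Log2 fold change with doxorubicin on day 7 in SK-MEL-103 (y axis) and IMR-90 (x axis) for the 32 p53 target genes tested in both lines, with bars of ±1 SE; red genes differed between the lines (adjusted p below 0.05) and the dashed line marks equal effects. SPATA18 lies above the line, and CYFIP2, BTG2, PLK3 and TIGAR lie farthest below it.

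In IMR-90 no difference between the effect on day 9 in DMSO and that on day 7 with control siRNA passed the test. No member and none of 20206 genes differed between them by edgeR's test at an adjusted p below 0.05, or 0% of genes, with 1214 genes at an unadjusted p below 0.05 and 0 members by DESeq2. Among the members 3 had an unadjusted p below 0.05, all of them arrest genes: GADD45A at -0.82 (day 9 minus day 7, adjusted p = 0.504), PLK2 at -0.79 and PHLDA3 at -0.33. GADD45A was at 128, 136 and 137 CPM in doxorubicin-treated and 67.7, 60.3 and 85.1 CPM in proliferating IMR-90 on day 9, and at 191, 178 and 182 CPM and 61.8, 65.8 and 42.9 CPM on day 7. The 95% interval of the difference lay within 2-fold either way for 26 of the 33 genes. Day, siRNA and DMSO differ together between these experiments and cannot be told apart.

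Of 24 genes that act on p53, 4 rose and 9 fell in IMR-90 on day 7, 4 rose and 8 fell of 22 tested in SK-MEL-103, and 3 rose and 11 fell of 24 in IMR-90 on day 9. The shares called in either direction, 54.2%, 54.5% and 58.3%, are near the 51.8%, 60.4% and 55.9% of all genes, so the counts show nothing particular to this list. CHEK1, the checkpoint kinase of replication stress, fell in all 3, with log2 fold changes of -2.15, -1.72 and -1.78. The deubiquitinase USP7, which acts on MDM2 and p53, fell in all 3 as well, at -0.66, -0.45 and -0.73. So did the ribosomal proteins RPL5 and RPL11, which restrain MDM2, at -0.85, -0.95 and -1.08 for RPL5. Others rose. TP53BP1 rose in all 3, at 0.38, 0.19 and 0.52. In IMR-90, TP63 had log2 fold changes of 3.26 (SE 0.684) on day 7 and 3.32 (SE 0.86) on day 9. TP73 had 2.56 (SE 0.911) and 2.75 (SE 0.493) on those days. These SEs are wider than those of the other genes named here.

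Of 30 further p53 targets that are not members, 18 rose and 3 fell in IMR-90 on day 7, 17 rose and 4 fell of 28 tested in SK-MEL-103, and 19 rose and 3 fell of 30 in IMR-90 on day 9. The shares that rose were 60%, 60.7% and 63.3%, against 27.4%, 29.8% and 28.8% of all genes, while 24.4%, 30.6% and 27.1% of all genes fell. The p21 gene CDKN1A rose in all 3, at 2.65, 1.95 and 2.20, and so did the death gene BBC3 (PUMA), at 1.34, 1.90 and 1.18. The stress hormone GDF15 and the death gene PMAIP1 (NOXA) split by line. GDF15 had log2 fold changes of 3.94 and 3.20 in IMR-90 on days 7 and 9 and -1.96 in SK-MEL-103, and PMAIP1 had 1.35, 0.67 and -0.80 in the same order. The 18 cell cycle genes that p53 is known to lower through p21 and the DREAM complex fell in all 3 comparisons, 18 of 18 each, with median log2 fold changes of -4.10, -6.60 and -3.18.

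The siRNAs lowered their targets in doxorubicin-treated cells of both lines. In IMR-90, MFN1 was at 7.69 ± 0.558 CPM with siMFN1 and 51.1 ± 13 CPM with control siRNA (mean ± SD, n = 3 each), a log2 fold change of -2.75, and at -2.08 with siMFN1+2. MFN2 had log2 fold changes of -3.20 with siMFN2 and -3.14 with siMFN1+2, and MAVS had -1.52 with siMAVS. In SK-MEL-103 the log2 fold changes were -1.57 and -1.25 for MFN1, -2.29 and -2.06 for MFN2 and -1.42 for MAVS.

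Silencing moved few p53 targets beyond the spread between libraries when the libraries were compared as unpaired groups. In IMR-90, 1 of 33 members rose with siMFN1, against 1.58% of all genes called in either direction (0.592% higher and 0.991% lower), 0 were called with siMFN2 (0.225% of genes; 4 members and 2569 genes at an unadjusted p below 0.05, and 0 members by DESeq2), 1 rose with siMFN1+2 (1.57% of genes, 0.64% higher and 0.933% lower) and 1 fell with siMAVS (0.634% of genes, 0.22% higher and 0.414% lower). The gene that rose was ZMAT3 (chr3:179017223-179072279, minus strand). It was at 347, 326 and 389 CPM with siMFN1 and 328, 334 and 357 CPM with siMFN1+2, against 209.9, 263 and 176 CPM with control siRNA and 82.4, 83.0 and 88.2 CPM in proliferating cells. All silenced libraries lay above all control libraries. Its log2 fold changes were 0.70 (SE 0.149, adjusted p = 0.0347) and 0.65 (SE 0.149, adjusted p = 0.0427). With siMFN2 it was at 284, 300.4 and 357 CPM, a log2 fold change of 0.52 that did not pass (adjusted p = 0.151). The siMFN1 call was lost in 5 of the 6 fits that leave out 1 of the compared libraries, with an adjusted p of up to 0.166, and was kept without control library 2. The siMFN1+2 call was lost in the same 5 of 6 cases, with an adjusted p of up to 0.196. ZMAT3 lies 275 kb from MFN1 on chromosome 3, and a part of that in its change was not tested.

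GADD45A was the gene that fell with siMAVS. It was at 107, 119.6 and 119 CPM with siMAVS and 191, 178 and 182 CPM with control siRNA, a log2 fold change of -0.69 (SE 0.138, adjusted p = 0.0394). The groups did not overlap, and the siMAVS level stayed above the 61.8, 65.8 and 42.9 CPM of proliferating cells. That call too was kept in 1 of 6 fits with 1 library left out, the fit without control library 2, and reached an adjusted p of up to 0.197 in the others.

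Same-numbered libraries deviated together from their group means in most of these comparisons, so the fit with the library number as a block, over the 6 libraries compared, was made beside the unpaired one. In IMR-90 the paired fit called 8 members with siMFN1 (17.9% of all genes were called in it), 5 with siMFN2 (14.8%) and 10 with siMFN1+2 (18%). The share of the 33 members is near that of all genes for siMFN2 and not far above it for siMFN1. It is higher for siMFN1+2. Whether these shares exceed those of all genes was not tested. ZMAT3 rose in all 3, with log2 fold changes of 0.71, 0.52 and 0.66 and adjusted p = 0.00843, 0.0379 and 0.00769. TIGAR fell in all 3, with -0.60, -0.42 and -0.38. With the library number as a block over all groups of the IMR-90 siRNA experiment, TIGAR passed with siMFN1 only (-0.60, adjusted p = 0.0234). TIGAR was at 21.0, 21.4 and 14.6 CPM with siMFN1, 23.9, 25.5 and 15.6 CPM with siMFN2 and 23.3, 24.4 and 17.7 CPM with siMFN1+2, against 29.5, 31.0 and 24.4 CPM with control siRNA. Each silenced library was below the control library of its own number and above all proliferating libraries. PLK2 fell in all 3 as well, with -0.52, -0.29 and -0.29. Its adjusted p in the paired fit was 0.0135 with siMFN1, just under 0.05 with siMFN2 and 0.0487 with siMFN1+2. The PLK2 groups overlapped, and each silenced library lay below the control library of its number.

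GADD45A fell with siMFN2 and siMFN1+2 in the paired fit, with log2 fold changes of -0.45 and -0.46. It was at 129, 129 and 154 CPM with siMFN2 and 133, 129 and 139 CPM with siMFN1+2, against 191, 178 and 182 CPM with control siRNA. AEN rose in the same pair of comparisons, by 0.32 and 0.43 on the log2 scale, with 111, 115 and 117 CPM for siMFN2 and 120.4, 121 and 123 CPM for siMFN1+2 against 81.1, 93.0 and 96.7 CPM for control siRNA. TP53I3 fell with siMFN1 (-0.40) and siMFN1+2 (-0.48), and PLK3 fell in those comparisons too (-0.46 and -0.37). TP53I3 was at 58.7, 48.2 and 70.8 CPM with siMFN1 and 59.1, 50.8 and 55.2 CPM with siMFN1+2, against 80.4, 66.3 and 84.7 CPM with control siRNA. TNFRSF10B, CYFIP2 and NINJ1 fell with siMFN1, at -0.50, -0.49 and -0.44. TP53INP1, SESN1 and CCNG1 rose with siMFN1+2, at 0.37, 0.34 and 0.33. Members were thus called in both directions with mitofusin silencing. Fewer of these calls were kept with the block over all groups of the IMR-90 siRNA experiment. Those kept were ZMAT3, TIGAR, PLK3 and TNFRSF10B with siMFN1 and ZMAT3 and AEN with siMFN1+2. No member was called with siMFN2 in that fit. The other paired calls with mitofusin silencing, those of PLK2, GADD45A and TP53I3 among them, were not kept. The 4 siRNA comparisons of a line share their control libraries. For siMAVS in IMR-90 the numbers did not pair the libraries, and no paired call is given.

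Among the 30 further p53 targets 1 fell in each IMR-90 siRNA comparison, or 3.33% of the list, against 1.58%, 0.225%, 1.57% and 0.634% of all genes called in either direction with siMFN1, siMFN2, siMFN1+2 and siMAVS. Each share is a single gene. LIF, a cytokine, fell with siMFN1 (-1.57, adjusted p = 0.0415) and siMFN1+2 (-1.56, adjusted p = 0.0402), and DRAM1, a membrane protein of lysosomes and autophagy, fell with siMAVS (-0.76, adjusted p = 0.0371) and, at an adjusted p just under the threshold, with siMFN2 (-0.77).

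**Figure D4:**
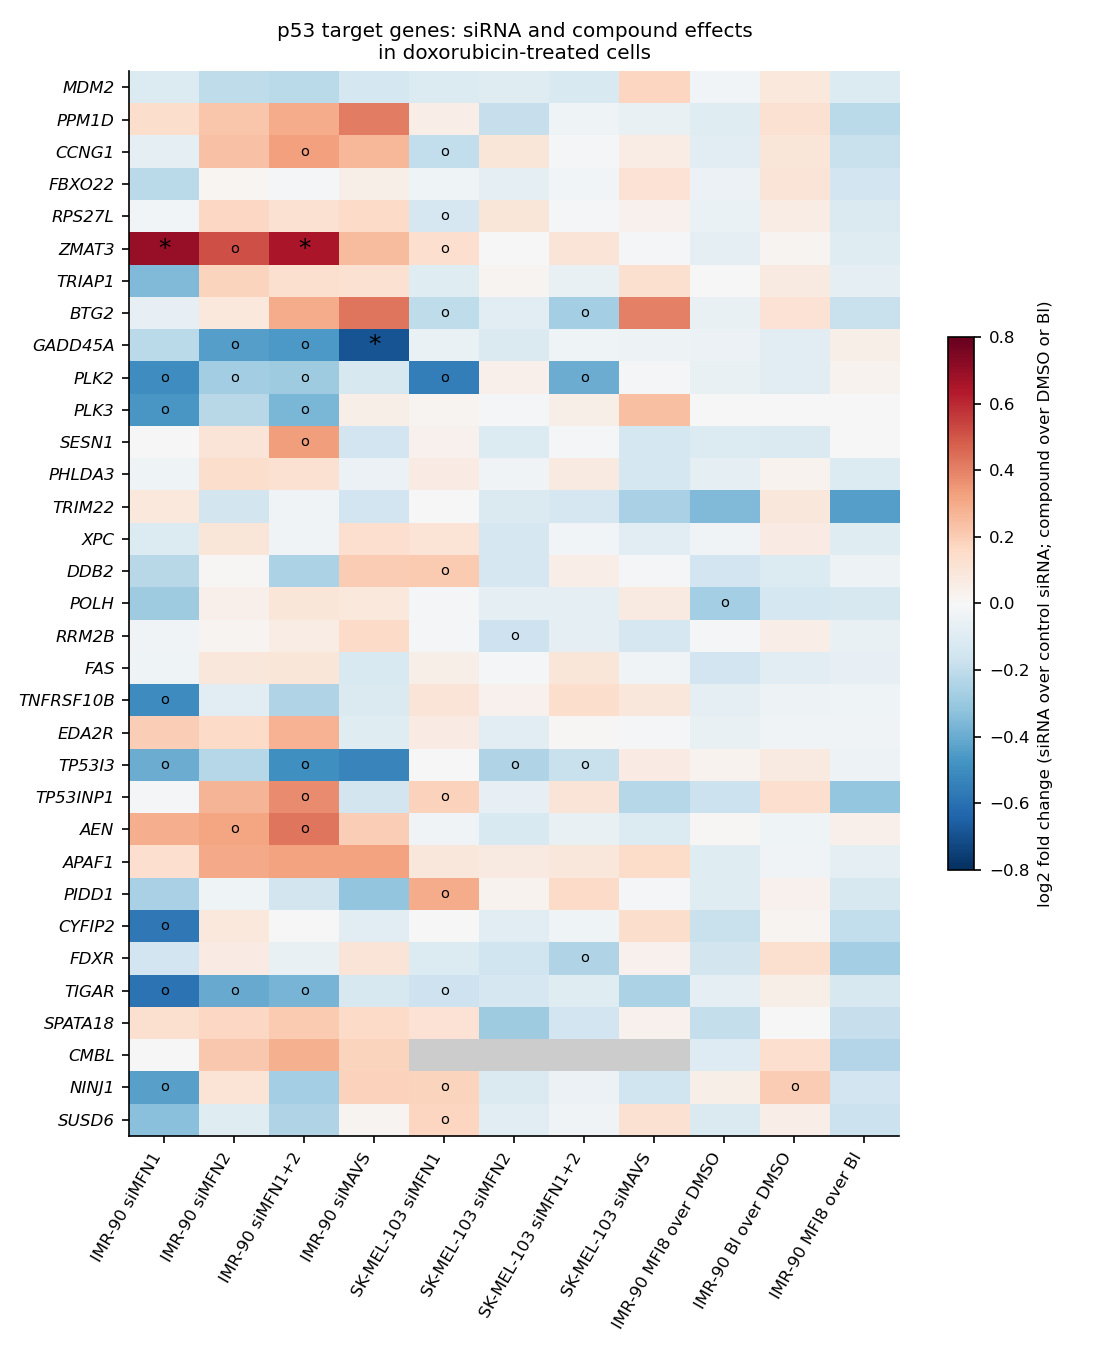
Log2 fold change (colour) of the 33 p53 target genes, by role, in the 8 siRNA and 3 compound comparisons among doxorubicin-treated cells; a star marks an adjusted p below 0.05 in the unpaired fit, a circle marks it in the paired fit of the 6 libraries alone, and grey was not tested. ZMAT3 and GADD45A carry the 3 stars, and circles lie mostly in the mitofusin comparisons.

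**Figure D5:**
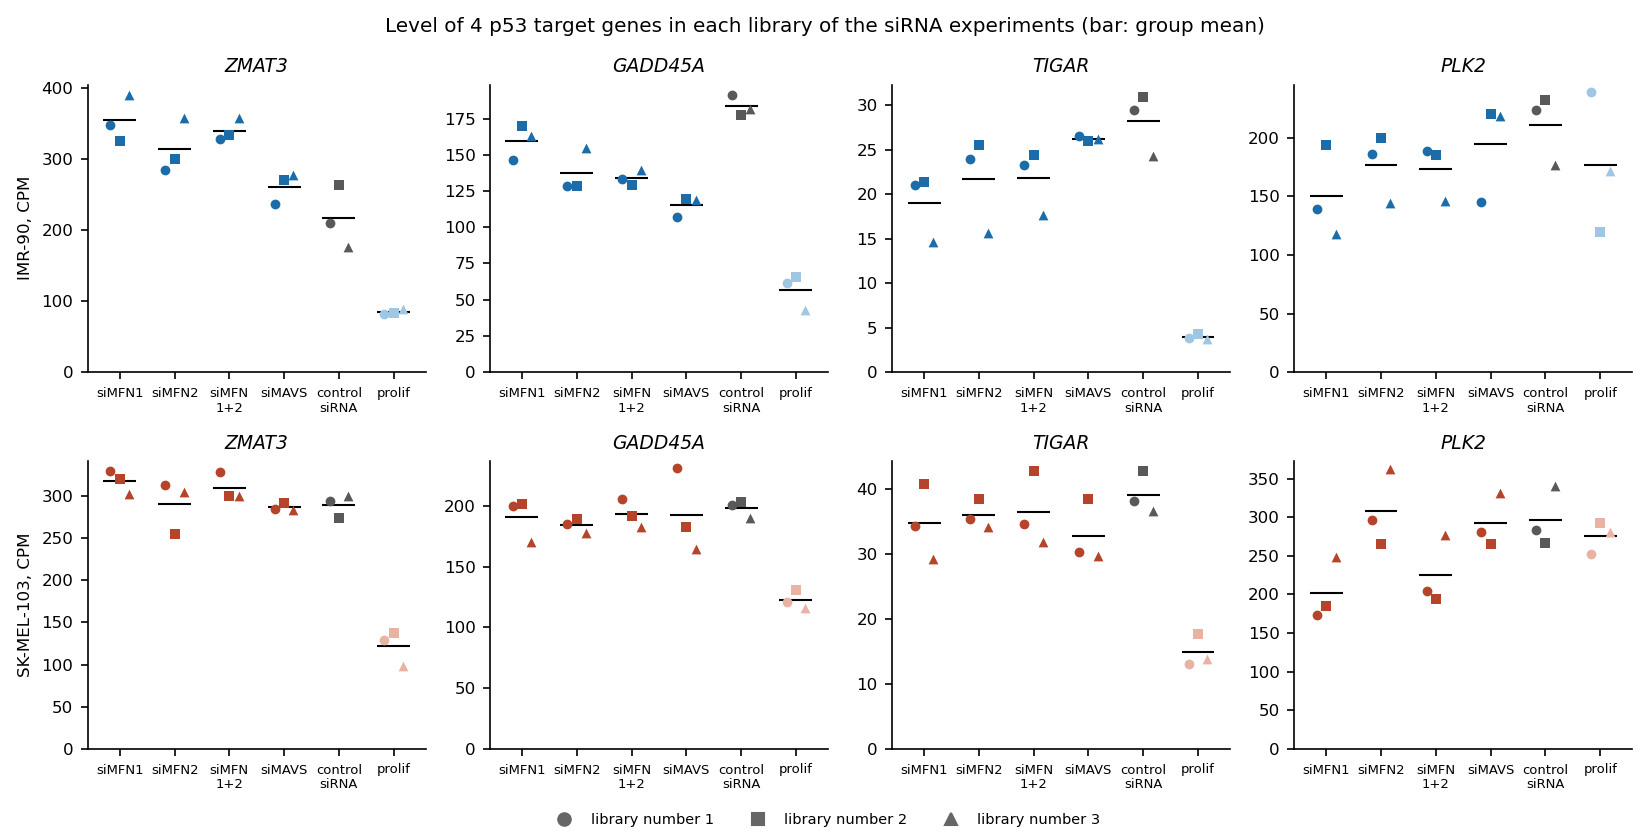
CPM in each library of ZMAT3, GADD45A, TIGAR and PLK2 with siMFN1, siMFN2, siMFN1+2, siMAVS and control siRNA after doxorubicin and in proliferating cells, for IMR-90 and SK-MEL-103; marker shape is the library number. In IMR-90 every library with siMFN1, siMFN2 or siMFN1+2 lies above the control siRNA libraries for ZMAT3.

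In SK-MEL-103 no member was called with any siRNA in the unpaired fit by edgeR, against 0.123% of all genes with siMFN1, 0.0669% with siMFN2, 0.24% with siMFN1+2 and 0.1% with siMAVS. At an unadjusted p below 0.05 there were 2, 0, 2 and 0 members, and 1028, 615, 738 and 650 genes. DESeq2 called 0 members in each as well. The paired fit called 11 members with siMFN1 (19% of all genes), 2 with siMFN2 (6.78%), 4 with siMFN1+2 (8.49%) and 0 with siMAVS (0.0604%). The share of the 32 tested members is near that of all genes for siMFN2 and not far above it for siMFN1+2. It is higher for siMFN1. Whether these shares exceed those of all genes was not tested. For siMFN2 the pairing takes the library without a number as number 1, the number its group lacks. PLK2 had the lowest log2 fold changes, at -0.56, adjusted p = 2.75e-06 with siMFN1 and -0.41, adjusted p = 3.75e-05 with siMFN1+2. It was at 173, 185 and 249 CPM with siMFN1 and 205, 194 and 277 CPM with siMFN1+2, against 283, 266 and 341 CPM with control siRNA. Library 3 was the highest of each group, and each silenced library lay below the control library of its number.

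The other paired calls in SK-MEL-103 were small. With siMFN1, PIDD1 (0.31), DDB2 (0.21), TP53INP1 (0.19), SUSD6 (0.18), NINJ1 (0.18) and ZMAT3 (0.14) rose, and BTG2 (-0.22), CCNG1 (-0.19), TIGAR (-0.17) and RPS27L (-0.14) fell, each value a log2 fold change. BTG2 also fell with siMFN1+2 (-0.29), as did FDXR (-0.24). TP53I3 fell with siMFN2 (-0.24) and siMFN1+2 (-0.19), and RRM2B fell with siMFN2 (-0.17). None of these small calls was kept with the block over all groups of the SK-MEL-103 siRNA experiment. Its only member called was PLK2 with siMFN1, at -0.56 (adjusted p = 0.00989), so PLK2 with siMFN1+2 was not kept either. In the unpaired fit the 95% interval of the log2 fold change stayed within 2-fold either way for all 32 tested members with siMFN1, siMFN2 and siMFN1+2 and for 31 with siMAVS. In IMR-90 the same held for 29 of 33 with siMFN1 and for 31 with each of the other siRNAs.

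No member had an siRNA effect that differed between the lines by edgeR's unpaired test of the difference, with 6, 3, 5 and 4 members at an unadjusted p below 0.05 and 1, 0, 0 and 1 by DESeq2 for siMFN1, siMFN2, siMFN1+2 and siMAVS. Of all 20892 genes, 0.153% differed for siMFN1, 0.0431% for siMFN2, 0.144% for siMFN1+2 and 0.0431% for siMAVS. For ZMAT3 the difference (SK-MEL-103 minus IMR-90) was -0.56 with siMFN1, -0.53 with siMFN2 and -0.56 with siMFN1+2, with adjusted p = 0.25, 0.581 and 0.291. With the library number as a block over all groups, TNFRSF10B differed for siMFN1, by 0.62 (adjusted p = 0.0349), where 1.05% of all genes differed.

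No p53 target passed the unpaired test with the compounds that act on mitofusins in IMR-90. MFI8 against DMSO, BI against DMSO and MFI8 against BI each gave 0 members and 0% of all 19056 genes by edgeR, and 0 members at an unadjusted p below 0.05, with 371, 175 and 326 genes at that level. DESeq2 called 0 members in all 3 too. The log2 fold changes of the 33 members ran between -0.35 and 0.05 with MFI8 and between -0.14 and 0.20 with BI, with medians of -0.08 and 0.05. MDM2 was at 236, 191 and 255 CPM with MFI8 and 238, 229.7 and 276 CPM with BI, against 249, 207 and 252 CPM with DMSO. In all 3 groups library 2 was the lowest. For 32 of 33 members the 95% interval lay within 2-fold either way in each of the 3 comparisons, CYFIP2 being the exception, and it lay within 1.5-fold for 26 with MFI8, 28 with BI and 25 for MFI8 against BI. Because the doses differ, MFI8 against BI compares those treatments and not the compounds at a matched dose.

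In the paired fit of the compound comparisons POLH fell with MFI8 (-0.28, adjusted p = 0.0472, 2.75% of genes called) and NINJ1 rose with BI (0.19, adjusted p = 0.0398, 3.84%), and no member was called for MFI8 against BI (0.539%). A single member of 33 is a share near that of all genes for MFI8 and for BI. POLH was at 77.5, 68.1 and 85.2 CPM with MFI8 and 91.9, 95.7 and 97.0 CPM with DMSO. NINJ1 was at 73.8, 49.4 and 58.0 CPM with BI and 61.5, 46.4 and 51.4 CPM with DMSO. The POLH groups did not overlap, and the NINJ1 groups did, with each BI library above the DMSO library of its number.

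Most of the p53 targets that rose with doxorubicin stayed above the proliferating range with silencing or compound. Of the 27 members that rose with doxorubicin in IMR-90 on day 7, all 27 had their lowest library above the highest proliferating library in the siMFN1, siMFN2, siMFN1+2 and siMAVS groups, against 72.4%, 72.9%, 69.2% and 74.2% of all 5223 genes that rose. In SK-MEL-103, 20 of 21 did so with siMFN1 (all but RPS27L), 20 with siMFN2 (all but DDB2), 20 with siMFN1+2 (all but XPC) and 19 with siMAVS (all but XPC and DDB2), against 91.4%, 88.6%, 88.2% and 78.7% of 5355 genes. After the compounds it was 26 of 27 with MFI8 (all but RPS27L) and 27 of 27 with BI, against 91.7% and 93.2% of 5495 genes. The members chosen for this count rose in the control comparison that shares the same proliferating libraries, so the counts are a description.

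The p53 targets also differed in how steady they were between libraries of a group. The coefficient of variation was taken for members with a group mean above 1 CPM. That left out CMBL in SK-MEL-103 and SPATA18 in proliferating SK-MEL-103. Its median ran from 6.86% to 17.1% over the 16 groups. CYFIP2 had the highest in all 8 doxorubicin-treated IMR-90 groups, at 42.5% to 65.5%. Its level followed the library number: with siMFN1 it was 38.8, 53.6 and 21.4 CPM, with siMFN2 59.8, 96.1 and 25.1 CPM, with siMFN1+2 57.1, 90.2 and 20.7 CPM and with control siRNA 49.4, 93.3 and 25.4 CPM in libraries 1, 2 and 3. In each of these library 2 was the highest and library 3 the lowest. In the compound experiment library 2 was the lowest instead, at 45.3, 7.81 and 42.2 CPM with MFI8, 47.5, 13.8 and 49.9 CPM with BI and 50.7, 15.3 and 44.8 CPM with DMSO. Among the members above 1 CPM in SK-MEL-103, the most variable was BTG2 in 4 of 6 groups. It was at 66.2, 109 and 218 CPM with siMAVS, where library 3 stood apart.

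In several groups 1 library was the lowest or the highest for most members. Library 3 was the lowest for 21 of the 33 with siMFN1, 22 with siMFN2 and 25 with siMFN1+2 in IMR-90, and for 25 with siMFN1 and 23 with siMFN1+2 in SK-MEL-103. Library 1 was the highest for 26 in proliferating IMR-90 in DMSO, and library 2 was the highest for 23 in doxorubicin-treated SK-MEL-103 with control siRNA. In IMR-90 with siMAVS, library 1 was the lowest of the 3 in 16 members and the highest in 16. SPATA18 was at 56.9, 29.2 and 28.1 CPM, EDA2R at 43.1, 70.4 and 70.9 CPM and CYFIP2 at 26.8, 67.4 and 65.6 CPM there, and fibroblast markers in that group summed to between 8984 and 42190 CPM.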

How the data were processed

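The authors deposited a table of raw read counts per gene, with Ensembl identifiers, for 48 libraries of stranded polyadenylated RNA. Per the submitters' processing notes, reads were trimmed with Trim Galore 0.6.7, aligned to GRCh38 with STAR 2.7.10a and counted with featureCounts. The annotation release, the strand setting and the treatment of reads with several hits are not given in the sources used here. Symbols were matched for 48880 of 48898 genes and positions (GENCODE 29) for 46876. All per-sample columns were matched to a sample by name.

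CPM were computed with edgeR 4.0.16 and TMM factors over all 48 libraries. Each experiment (18, 18 and 12 libraries) was fitted on all genes that passed filterByExpr, with 1 coefficient per group, using edgeR's quasi-likelihood test in R 4.3.3. SE was taken as |log2 fold change|/√F, and intervals are at 95%. Differences between lines were fitted over 36 libraries and between days over 30. Library totals of 15206115 to 79204217 counts set the precision. The procedure was tested on simulated counts.

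Alternatives were other size factors, no filter, DESeq2 1.42.0, a block for the library number, the older quasi-likelihood method and leaving out each library. The older method and terms for the ranges of column numbers in the IMR-90 siRNA experiment were chosen after seeing the data. Those numbers run from 19 to 24, from 25 to 30 and from 89 to 93, with 35 apart. Library 3 of siMAVS is column 35, with a term of its own, and library 3 of its control siRNA is column 89. The library numbers come from the sample labels, except for a library of SK-MEL-103 with siMFN2 that has none and took number 1, the number its group lacks. They paired the samples where every same-numbered pair deviated from its group means with a correlation over 0.1, which held for siMFN1, siMFN2 and siMFN1+2 in IMR-90 (0.394 to 0.721), all 4 siRNAs in SK-MEL-103 (0.145 to 0.439) and the 3 compound comparisons (0.657 to 0.88), and not for doxorubicin against proliferating cells or siMAVS in IMR-90.

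The members and all gene lists were chosen with earlier results of these data known. All members may be named. Per-library values are given for MDM2 in the doxorubicin comparisons and for the called members with the 5 highest and 5 lowest log2 fold changes of a comparison, or the 4 highest and 4 lowest for a difference between lines. A gene outside the members that the rule also covers is not reported here, and the counts over lists leave it out. Other per-library values were chosen after they were seen, and other lists are given by counts. Promoter sequences are from RefSeq on GRCh38.p14. Windows of the other 8 members are not shown.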

Additional observations from a re-analysis of the deposited data

Results flagged for a closer look

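The doxorubicin effect on 10 of 33 p53 target genes differed between SK-MEL-103 and IMR-90 by a test of the difference itself. It was edgeR's quasi-likelihood test over 36 libraries with Benjamini-Hochberg adjustment. Of all 20892 genes in that test, 22.2% differed. As log2 differences (SK-MEL-103 minus IMR-90), SPATA18 was at 2.48 (SE 0.492, adjusted p = 0.000554), higher in SK-MEL-103. The others were lower there: CYFIP2 at -3.29 (SE 0.648, adjusted p = 0.000524), BTG2 at -1.90 (SE 0.597, adjusted p = 0.0215), PLK3 at -1.64 (SE 0.245, adjusted p = 2.39e-05), TIGAR at -1.37 (SE 0.247, adjusted p = 0.000212) and GADD45A at -0.90 (SE 0.177, adjusted p = 0.000517). Smaller differences were those of TP53INP1 at -0.77 (SE 0.283, adjusted p = 0.0484), POLH at -0.60 (SE 0.219, adjusted p = 0.0468), CCNG1 at -0.57 (SE 0.14, adjusted p = 0.00412) and TNFRSF10B at -0.48 (SE 0.161, adjusted p = 0.0314). In each of these genes, all 3 doxorubicin libraries of IMR-90 lay above all 3 proliferating libraries, and in SK-MEL-103 the same held for all but CCNG1, where they lay below, and PLK3 and POLH, where the groups overlapped. CYFIP2 in SK-MEL-103 lay above too, without passing the test. How many of all genes lay apart in this way was not counted, so this is a description. With 1 library left out, the calls for POLH, TP53INP1, TNFRSF10B and BTG2 were lost in 10, 8, 7 and 4 of 12 fits. The cause of the differences was not tested.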

How the results depend on the processing

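The count of p53 targets called with doxorubicin stayed within 1.5 times under every alternative run, at 26 to 28, 21 to 24 and 26 to 29 with 1 library left out in IMR-90 on day 7, SK-MEL-103 and IMR-90 on day 9. Of 93 calls of single members, 93 were kept with other size factors, 93 with DESeq2, 84 without the low-count filter and 91 with the older quasi-likelihood method, and 550 of 618 were kept with 1 library left out. No call changed sign in these fits. Small counts moved most. The counts that follow are of members. Shares of all genes under the same fit are given above only for the 6-library block of the paired comparisons and for the blocked siMFN1 difference. The other counts cannot be set against all genes and are a description. With DESeq2, 4 members were called for siMFN1, 4 for siMFN1+2 and 3 for siMAVS in IMR-90, and 1 each for the siMFN1 and siMAVS differences between lines. Without the filter there were 0 for siMFN1+2 and siMAVS in IMR-90 and 6 for the doxorubicin difference between lines, and the older method gave 0 for siMFN1+2 and siMAVS. With the library number as a replicate block over all groups there were 4 for siMFN1 and 2 for siMFN1+2 in IMR-90, 1 for siMFN1 in SK-MEL-103 and 1 for the siMFN1 difference. The block with the 6 compared libraries alone gave 8, 5, 10 and 0 for siMFN1, siMFN2, siMFN1+2 and siMAVS in IMR-90, 11, 2 and 4 for siMFN1, siMFN2 and siMFN1+2 in SK-MEL-103, 1 for MFI8 and 1 for BI. It changed no other count of a paired comparison. For siMAVS in IMR-90 and for doxorubicin the samples share only a number, and not every sample correlated best with its own; the 6-library block gave 23 for doxorubicin in IMR-90 on day 7, 23 in SK-MEL-103 and 28 on day 9. The terms for the ranges of column numbers gave 4 for siMFN1 and 2 for siMFN1+2. With 1 library left out, siMFN1, siMFN1+2 and siMAVS in IMR-90 gave 0 to 1 and the doxorubicin difference between lines gave 6 to 10, with 6 without proliferating library 1 of IMR-90 or doxorubicin library 1 of SK-MEL-103. The cause of these shifts was not tested. CYFIP2 had the highest coefficient of variation of the members in all 8 doxorubicin-treated IMR-90 groups, at 42.5 to 65.5%, which limits what could be detected for it.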
